A study of Mus musculus with 15 samples.

Results

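This study followed what hypoxia-ischemia (HI), a combined loss of oxygen and blood flow, did within 24 h to PDGFRβ-positive cells isolated from the brains of neonatal mice that lack microRNA-210 (miR-210). The comparison set 4 libraries labelled KO HI against 4 labelled KO sham, 8 of the 15 libraries of the series, chosen by their labels. All 8 libraries share the knockout genotype, and every library of the series comes from cells labelled PDGFRbeta+. The other 7 libraries, 4 from wild-type (WT) mice after HI and 3 from WT sham mice, served to estimate the spread between libraries and to test whether the HI response differed between genotypes. The labels give genotype and treatment. They give no strain, sex, age in days or isolation step, and they do not say whether a replicate is 1 animal, so the p-values below measure the spread between these samples, which may be technical.

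miR-210 is a short RNA whose transcription is raised by hypoxia-inducible factors, and it is known for restraining genes of mitochondrial respiration. PDGFRβ is the receptor through which pericytes, the cells that wrap brain capillaries, receive the growth factor PDGF-B from endothelium, and it is also carried by vascular smooth muscle cells and fibroblasts. Ischemic brain tissue is known to show activated microglia, induced chemokines and leukocyte adhesion on vessels, and stress of the endoplasmic reticulum (ER). The mature strands of this microRNA, the ones the knockout is meant to lack, are shown here with the seed, bases 2 to 8, in capitals. Both come from RefSeq (build GRCm38.p6, minus strand), the first from chr7:141221407-141221428 and the second from chr7:141221445-141221466.
mmu-miR-210-3p: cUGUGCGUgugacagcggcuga
mmu-miR-210-5p: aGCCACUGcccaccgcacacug
The deposited table has 1 line for Mir210, and it is blank in every library. Loss of the targeted gene could therefore not be checked, and the mature microRNA was not measured.

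The libraries held transcripts of several cell types besides pericytes, in uneven amounts. Pdgfrb (Gene ID 18596), the receptor that defines the isolate, had 364, 272, 194 and 596 CPM in KO HI libraries 1 to 4, against 251, 496, 785 and 533 CPM in KO sham libraries 1, 3, 4 and 6. CPM are counts scaled to the normalised size of each library. Neuronal transcripts were uneven: the mean log2 CPM of the neuron markers was 0.09, 3.21, 5.11 and 0.09 in KO HI libraries 1 to 4, against 5.76, 3.33, -0.57 and 1.39 in KO sham libraries 1, 3, 4 and 6. High and low neuronal levels thus occurred in both groups, and this score was entered as a covariate in the test. Microglia markers averaged 8.47 ± 0.48 log2 CPM in KO HI and 7.84 ± 0.37 in KO sham libraries (SD, n = 4 each). Endothelial markers averaged 8.22 ± 0.52 and pericyte markers 6.12 ± 0.71 log2 CPM in KO HI, against 8.75 ± 0.70 and 6.604 ± 0.72 in KO sham libraries. WT libraries varied less in both lists, with SDs of 0.13 and 0.24 in WT HI and 0.12 and 0.29 in WT sham. Microglia SDs were 0.68 in WT HI and 0.25 in WT sham. All 15 libraries shared the same estimate of spread per gene, so errors and p-values for KO may be too small. The first principal component of the 15 libraries held 57.1% of the variance. Its value was highest in KO sham 1 (150) and lowest in WT HI 4 (-62.7), the libraries with the highest and lowest neuron score. KO HI 2 (67.5) and KO sham 3 (66.4), with similar neuron scores, lay close together on it. Total expected counts ran from 16291948 to 18118697 in KO HI and from 15436376 to 17306041 in KO sham libraries.

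**Figure D1:**
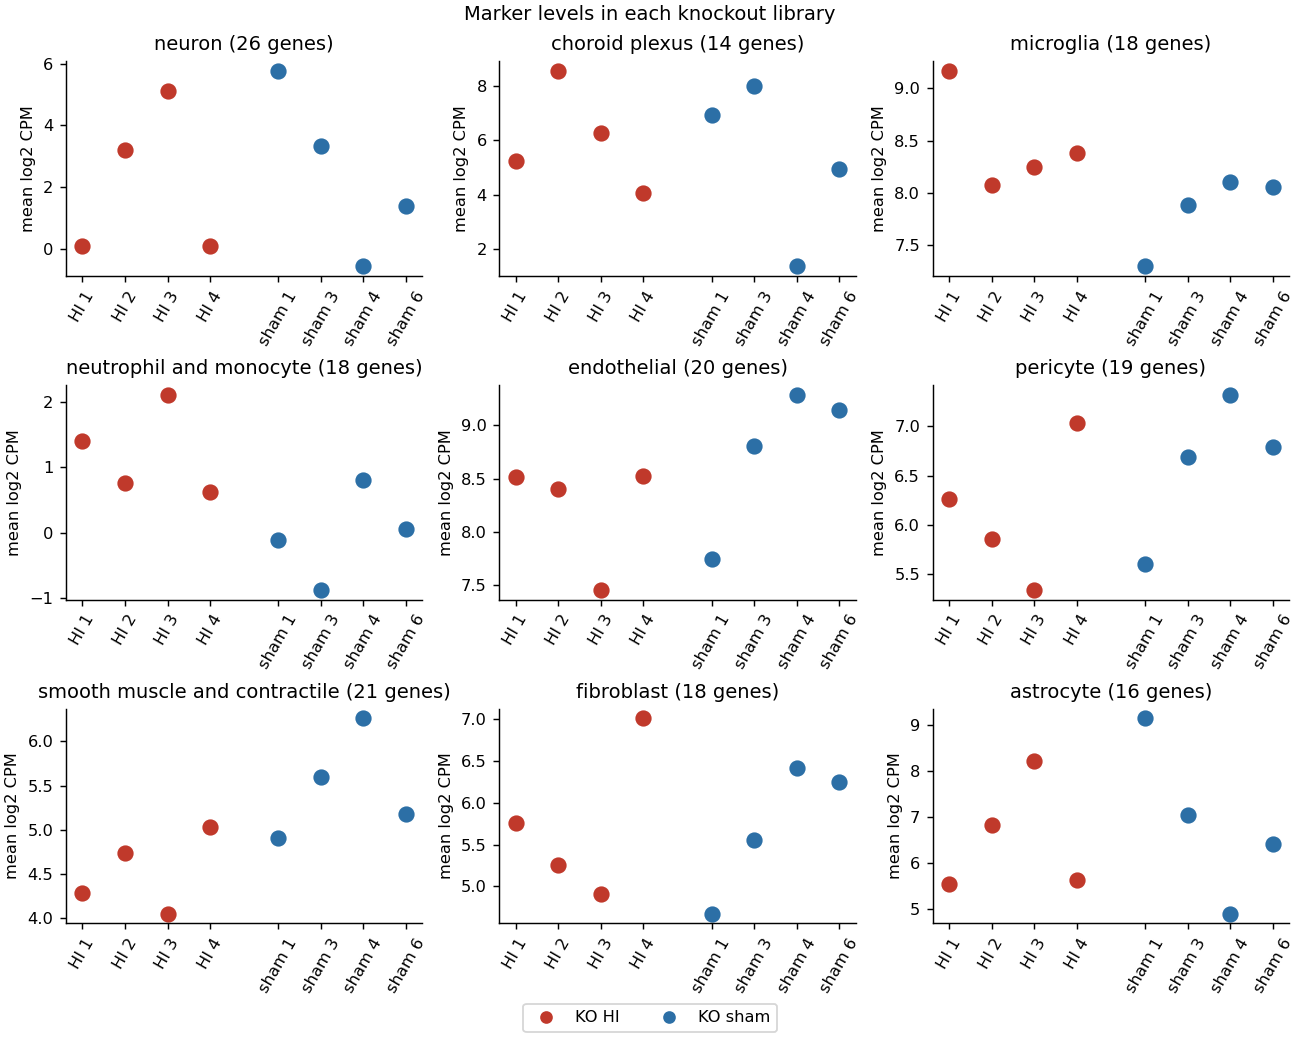
Mean log2 CPM of 9 marker lists in each knockout library, with KO HI libraries on the left and KO sham libraries on the right of each panel. Neuron markers spread from 0.09 to 5.11 within KO HI and from -0.57 to 5.76 within KO sham, while contractile markers averaged 4.52 in KO HI and 5.49 in KO sham.

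After HI, genes of inflammation, phagocytosis and protein folding were higher in the knockout isolates, and genes of the contractile vessel wall and of Notch signalling were lower. Of 14853 genes tested with edgeR's quasi-likelihood test, 1472 were higher (9.91%) and 1354 lower (9.12%) in KO HI at a Benjamini-Hochberg adjusted p under 0.05, and a gene past that threshold is referred to as called. Changes upward were larger: 429 called genes were at least 2-fold higher and 173 at least 2-fold lower. The median log2 fold change of all tested genes was -0.03. Without the neuron covariate 725 genes were higher (4.88%) and 316 lower (2.13%), and each of these 1041 genes was also called with it. With the microglia score as an added covariate the counts were 684 (4.61%) and 576 (3.88%). With only the 8 knockout libraries and the neuron covariate, 527 genes were higher and 196 lower in edgeR. With only the 8 knockout libraries and no covariate, 16 genes were higher and 0 lower in edgeR, and 1911 genes had an unadjusted p under 0.05.

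**Figure D2:**
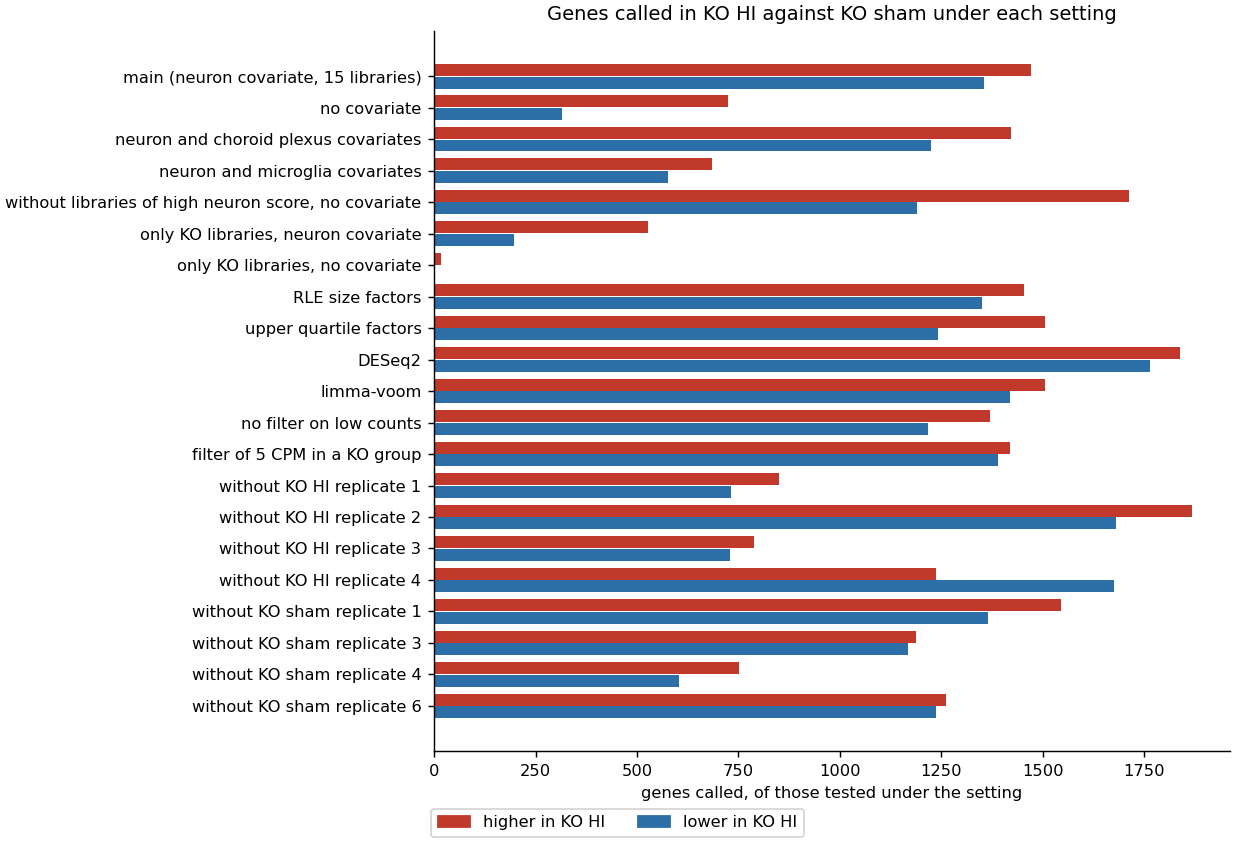
Number of genes called higher and lower in KO HI against KO sham under each processing setting and with each knockout library left out. The neuron covariate over 15 libraries gives 1472 and 1354 genes, and the 8 knockout libraries with no covariate give 16 and 0.

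The largest increases included surface proteins of phagocytes, secreted acute-phase proteins and a few genes of other roles. The 12 genes named here had the largest fold among those called with and without the covariate, with at least 20 CPM in the higher group and no overlap between groups. Groups did not overlap in 8.84% of all tested genes, and 7.72% were called and without overlap. Lcn2 (Gene ID 16819), an iron-sequestering acute-phase protein, had 59.6, 16.9, 58.03 and 61.6 CPM in KO HI libraries, against 0.659, 1.87, 2.1998 and 1.6998 CPM in KO sham libraries. Its log2 fold change was 4.896 ± 0.39 (standard error; adjusted p = 4.51e-05). KO HI 2 was the lowest HI library for Lcn2 and still lay far above every sham library. Adam8 (Gene ID 11501), a membrane metalloprotease of leukocytes, had 75.9, 17.04, 72.9 and 66.6 CPM in KO HI libraries, against 1.61, 1.701, 2.14 and 2.796 CPM in KO sham libraries, a change of 4.79 ± 0.47 (edgeR adjusted p = 0.000198). Msr1 (Gene ID 20288), a scavenger receptor of macrophages, had 161, 35.3, 123 and 188 CPM in KO HI libraries, against 3.88, 6.35, 6.08 and 2.91 CPM in KO sham libraries. The inhibitory receptor Lilrb4a had 136, 38.7, 122 and 131 CPM in KO HI libraries, against 3.0004, 3.12, 5.09 and 5.48 CPM in KO sham libraries. In Msr1 and Lilrb4a KO HI 2 again gave the lowest HI value, and the changes were 4.65 ± 0.46 and 4.65 ± 0.44. Over these 12 genes KO HI 2 was the lowest HI library in 11, and KO sham 6 was the highest sham library in 9.

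Spp1 (Gene ID 20750), osteopontin, a secreted matrix protein, had 4102, 1465, 2615 and 4056 CPM in KO HI libraries, against 27.4, 23.9, 20.6 and 427 CPM in KO sham libraries. KO sham 6 stood well above the other sham libraries and below every HI library. The mean ratio of KO HI to KO sham was 24.5 with all 4 sham libraries and 128 without KO sham 6, and the log2 fold change was 4.66 ± 0.88, or 6.906 without that library. Lpl (Gene ID 16956), lipoprotein lipase, had 1344, 491, 978 and 1330.5 CPM in KO HI libraries, against 44.8, 52.4, 76.01 and 133 CPM in KO sham libraries, a change of 3.73 ± 0.39. Tnf, the cytokine tumour necrosis factor, had 291, 63.9, 163 and 259 CPM in KO HI libraries, against 11.7, 15.3, 19.5 and 25.5 CPM in KO sham libraries, and its groups did not overlap either. The remaining increases of this rank were Cd72 (3.81 ± 0.43), a receptor of B cells and macrophages, Lgals3 (3.56 ± 0.38), a lectin of phagocytes, the chemokine Ccl4 (3.29 ± 0.49), Galnt6 (3.1002 ± 0.42), a transferase that starts O-linked glycans, and Prg4 (4.28 ± 0.62), the lubricant proteoglycan of joints.

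**Figure D3:**
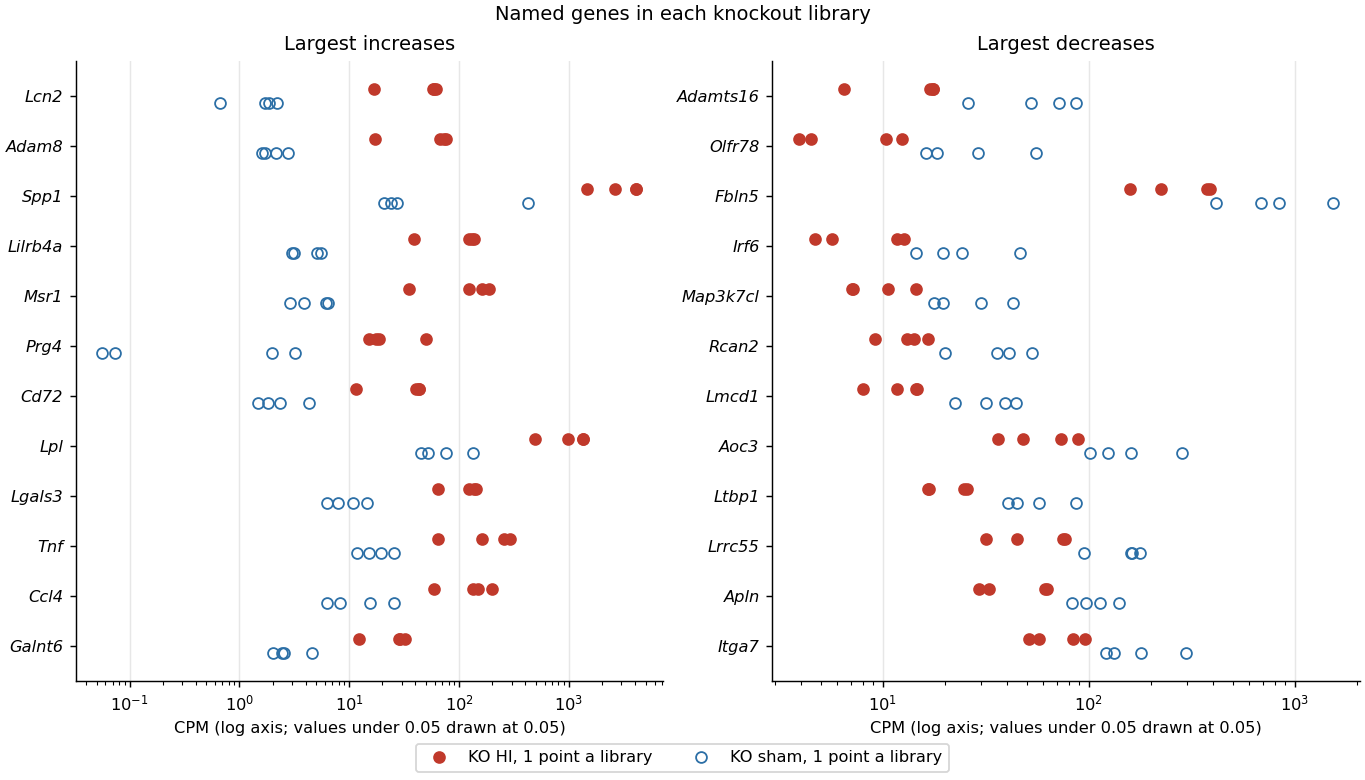
CPM on a log axis of the 12 genes with the largest increases and the 12 with the largest decreases, 1 point a library, with KO HI drawn above KO sham in each row. Groups do not overlap because the rule that chose these genes asked for it. Spp1 in KO sham 6 lies apart from the other 3 sham libraries.

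Acute-phase genes and the signalling chain of interleukin-6 (IL-6) were among the genes that rose. The list covers secreted acute-phase proteins, the IL-6 family cytokines and the STAT3 pathway they act through. Of 27 members tested 13 rose and 1 fell, against 9.91% and 9.12% of all genes, with a median log2 fold change of 0.89 beside -0.03 over all genes. Lrg1, a secreted glycoprotein that modifies TGF-β signalling in vessels, had 21.6, 10.1, 19.7 and 16.7 CPM in KO HI libraries, against 0.512, 0.8504, 0.637 and 0.877 CPM in KO sham libraries, a change of 4.52 ± 0.27 (edgeR adjusted p = 2.77e-06). Serpina3n, a secreted protease inhibitor, had 24.1, 11.1, 77.1 and 16.2 CPM in KO HI libraries, against 11.4, 2.44, 0.695 and 2.74 CPM in KO sham libraries. All sham values of Lrg1 lay below all HI values, and in Serpina3n KO HI 2 lay just below KO sham 1. Saa3, serum amyloid A, had 6.498, 1.04, 5.02 and 14.8 CPM in KO HI libraries, against 0, 0.0567, 0 and 0 CPM in KO sham libraries, so it was at or near 0 in every sham library. Bcl3, an NF-κB cofactor, rose by 1.22 ± 0.18. Lifr, the receptor of leukemia inhibitory factor, fell by 0.60 ± 0.13.

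Chemokines and the IL-1 and TNF families rose broadly. Of 28 chemokine genes and receptors 15 rose and 1 fell, with a median of 1.28. Of 35 genes of the IL-1, TNF and NF-κB list 22 rose and 0 fell, with a median of 0.75. Among ligands, Ccl2, which attracts monocytes, had 198, 70.5, 170.5 and 294 CPM in KO HI libraries, against 32.1, 34.1, 31.4 and 44.1 CPM in KO sham libraries, a change of 2.299 ± 0.33 (edgeR adjusted p = 0.00162). Ccl12 rose by 2.77 ± 0.37, Ccl9 by 2.62 ± 0.42, Cxcl16 by 2.57 ± 0.31 and Ccl5, which attracts T cells and monocytes, by 3.66 ± 0.35. Csf1, the growth factor of microglia and macrophages, had 387, 256, 297 and 349 CPM in KO HI libraries, against 74.3, 116, 179 and 176 CPM in KO sham libraries, and its change was 1.25 ± 0.17. Ptgs2, the inducible cyclooxygenase, had 50.5, 25.1, 30.1 and 70.3 CPM in KO HI libraries, against 3.37, 6.92, 7.76 and 8.01 CPM in KO sham libraries. Csf1 and Ptgs2 were higher in all 4 HI libraries than in any sham library. Il1rn, the antagonist of interleukin-1, rose by 3.94 ± 0.56. Among receptors, Tlr2 and Cd14, sensors of bacterial products, rose by 2.396 ± 0.39 and 2.34 ± 0.39. Ackr3, a receptor that takes up CXCL12, was the member that fell, by 1.03 ± 0.17. With the microglia covariate 12 chemokine genes and 10 genes of the second list rose. A further fit left out the 4 knockout libraries of high neuronal level (KO HI 2, KO HI 3, KO sham 1 and KO sham 3) and also had no covariate. It compared only KO HI 1 and KO HI 4 with KO sham 4 and KO sham 6, with the WT libraries in the estimate of spread. In this low-neuron fit 14 and 13 rose. In the second list 9 members rose without the covariate in all libraries, and 11, 9 and 14 rose when KO HI 1, KO HI 3 and KO sham 1 were left out in turn.

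Cxcl2 is shown with its promoter because NF-κB letters were frequent in these lists. It is a neutrophil attractant, chosen for display after its values were seen, and had 38.3, 13.5, 32.01 and 22.6 CPM in KO HI libraries, against 1.76, 4.76, 7.58 and 1.43 CPM in KO sham libraries, a change of 2.79 ± 0.57 (edgeR adjusted p = 0.00606). The letters GGG and TTTCC with any 2 bases between them, on either strand of the window from 250 bases before to 50 after the start site, occurred in 23.33% of the 30 IL-1, TNF and NF-κB genes with a RefSeq window, in 15.79% of 19 chemokine genes and in 1.895% of all 27025 genes. Among the 11794 tested genes with a window the share was 2.06%. It was 3.738% of the 1177 genes called higher with a window and 1.919% of the 1042 called lower. Both lists were made by known function, the first of them of NF-κB genes, so their shares are no test of regulation here. The 120 bases before the Cxcl2 start carry 2 matches, in capitals (RefSeq, GRCm38.p6, plus strand, chr5:90903779-90903898).
Cxcl2: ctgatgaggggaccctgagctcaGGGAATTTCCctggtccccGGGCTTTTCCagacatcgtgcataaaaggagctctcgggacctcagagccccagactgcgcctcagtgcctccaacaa
A match is a description of letters, and binding was not measured.

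Adhesion molecules of activated endothelium and their leukocyte ligands, taken as 1 list, split into a part that rose and a part that fell. Of 18 genes 8 rose and 4 fell, and 5 rose without KO HI 3. Ackr1, the chemokine-binding receptor of venules, had 77.02, 70.6, 84.5 and 70.5 CPM in KO HI libraries, against 12.3, 15.9, 18.2 and 13.2 CPM in KO sham libraries, a change of 2.34 ± 0.13 (edgeR adjusted p = 2.73e-06), with tight values in both groups. The selectins Selp and Sele, which let leukocytes roll on endothelium, rose by 3.49 ± 0.49 and 3.99 ± 0.45. Selp had 25.9, 4.202, 22.1 and 26.8 CPM in KO HI libraries, against 1.098, 2.27, 2.43 and 0.987 CPM in KO sham libraries. Sele had 9.66, 2.24, 9.86 and 9.61 CPM in KO HI libraries, against 0.439, 0.6803, 0.405 and 0.384 CPM in KO sham libraries, so its sham level was near the floor of detection. The leukocyte integrin chains Itgb2 and Itgam, the partners that bind ICAM-1, rose by 1.28 ± 0.27 and 1.18 ± 0.29. The endothelial junction proteins Jam2 and Jam3 fell by 0.65 ± 0.10 and 0.66 ± 0.12, and Icam2 by 0.75 ± 0.15. The remaining member that fell was a further integrin chain, Itga4, with log2 fold changes of -0.93 to -0.59 under the alternative settings.

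Of 32 proteases that cut matrix and their inhibitors, 11 rose and 3 fell, with a median of 0.05. The share that fell (9.375%) was near the 9.12% of all genes. Mmp3, stromelysin, had 4.97, 7.14, 4.66 and 6.15 CPM in KO HI libraries, against 0, 0, 0 and 0 CPM in KO sham libraries. With the sham level set to 3 counts per library, the increase of Mmp3 was at least 31.5-fold. Mmp12, the macrophage elastase, had 10.96, 2.94, 11.1 and 9.501 CPM in KO HI libraries, against 0.146, 0.3402, 0 and 0.439 CPM in KO sham libraries, and the collagenase Mmp13 had 2.77, 6.04, 4.18 and 6.37 CPM in KO HI libraries, against 0.0732, 0.113, 0.0579 and 0 CPM in KO sham libraries. Timp1, an inhibitor of these enzymes, had 22.5, 20.7, 26.1 and 30.3 CPM in KO HI libraries, against 2.71, 3.91, 7.53 and 7.29 CPM in KO sham libraries, a change of 2.24 ± 0.23 (edgeR adjusted p = 0.000253). The plasminogen activator Plau and its receptor Plaur rose by 1.32 ± 0.16 and 1.63 ± 0.27. On the other side, Adamts16 (Gene ID 271127), a secreted metalloprotease, had 17.6, 17.5, 6.47 and 17.05 CPM in KO HI libraries, against 25.9, 52.3, 87.01 and 71.7 CPM in KO sham libraries, a change of -2.03 ± 0.19. Mmp17 fell by 1.28 ± 0.25 and Mmp14 by 0.39 ± 0.12. Mmp3 was called under each of the 29 alternative settings it was run in, as were Lcn2, Adam8, Lilrb4a, Lilr4b, Msr1, Lpl, Lgals3, Galnt6, Lrg1, Ackr1 and Cd63.

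Genes of phagocytosis, lipid handling and lysosomes rose, and Ctsb, Ctsd, Ctsl, Lgmn and Lpl were among the 8 largest gains in mean CPM. Of 32 myeloid receptor genes 28 rose and 0 fell, with a median of 1.73. Of 32 phagocytosis and lipid genes 25 rose and 1 fell, with a median of 1.25 (16 rose without KO HI 3), and of 32 lysosome genes 23 rose and 1 fell, with a median of 0.87. Ctsb (Gene ID 13030), a lysosomal protease of the cathepsin family, had 6898, 3305, 5159.6 and 5158 CPM in KO HI libraries, against 943, 1138, 1186 and 2341 CPM in KO sham libraries, the largest gain in mean CPM of any gene called in both fits. Ctsd had 5899, 3679, 4232 and 3842 CPM in KO HI libraries, against 1056, 1513, 1103 and 2267 CPM in KO sham libraries. The groups did not overlap in Ctsb or Ctsd, and KO sham 6 gave the highest sham value of both. Ctsl (1.76 ± 0.26) and Lgmn (1.26 ± 0.28), a further lysosomal protease, also rose, and Ctsh fell by 0.46 ± 0.13. The 8 gains also held Spp1, Tmsb4x, an actin-binding peptide, and Hspa8, a cytosolic chaperone. Tmsb4x averaged 2321 ± 594 CPM in KO HI and 1468 ± 166 CPM in KO sham libraries, and Hspa8 averaged 2416 ± 389 CPM in KO HI and 1668 ± 116 CPM in KO sham libraries (SD, n = 4 each).

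Lipid storage genes rose alongside. Plin2, the coat protein of lipid droplets, had 702, 263, 616 and 657 CPM in KO HI libraries, against 47.6, 66.5, 77.1 and 122 CPM in KO sham libraries, a change of 2.82 ± 0.32 (edgeR adjusted p = 0.000436). Cd63, a membrane protein of late endosomes, had 442, 387, 435 and 430.3 CPM in KO HI libraries, against 211, 226, 162 and 202 CPM in KO sham libraries, a narrower change of 1.097 ± 0.10. Ch25h, which makes 25-hydroxycholesterol, rose by 3.395 ± 0.38. Of the receptors, C5ar1 and C3ar1, which bind the complement fragments C5a and C3a, rose by 2.89 ± 0.35 and 1.896 ± 0.36, and Fcgr4, an IgG receptor, by 1.83 ± 0.26. C5ar1 had 169, 53.3, 119.9 and 151 CPM in KO HI libraries, against 10.4, 16.4, 21.7 and 16.3 CPM in KO sham libraries. The vacuolar proton pump subunit Atp6v0c rose by 0.91 ± 0.13 and the glycosidase Gla by 1.67 ± 0.20.

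These genes are carried by microglia and macrophages. The summed microglia markers did not overlap between the groups, and the summed border macrophage markers did. The 18 microglia markers summed to 7776 to 16773 CPM in KO HI and 4279 to 7599 CPM in KO sham libraries, and 7 of 18 rose: the complement subunits C1qa, C1qb and C1qc (1.18, 1.39 and 1.15), Aif1, Fcrls, Tyrobp and Trem2. With KO HI 1 left out 3 of them rose, with KO HI 3 left out 2, and with KO sham 4 left out 3. The homeostatic markers Tmem119 and P2ry12 were not called: Tmem119 had 288, 128, 118 and 132 CPM in KO HI libraries, against 115, 186, 222 and 149.8 CPM in KO sham libraries, a change of -0.08 ± 0.27, and P2ry12 changed by -0.35 ± 0.41. Border macrophage markers summed to 1246 to 2542 CPM in KO HI and 846 to 1300.5 CPM in KO sham libraries. Of these markers 2 of 12 were called higher (16.67%), against 9.91% of all genes. The border macrophage count was 1 without the covariate, 1 with the microglia covariate, 0 without KO sham 4 and 6 in the low-neuron fit. Neutrophil and monocyte markers summed to 131 to 249.7 CPM in KO HI and 92.7 to 151 CPM in KO sham libraries, with 6 of 16 called higher. That count was 1 with the microglia covariate and 1 in the low-neuron fit. It was 2 when KO HI 3 was left out, and 3 when KO HI 1, KO sham 1 or KO sham 3 was left out. S100a8, a defining neutrophil gene, had 8.65, 3.799, 15.01 and 3.35 CPM in KO HI libraries, against 0.585, 0.227, 1.22 and 0.658 CPM in KO sham libraries. Lymphocyte markers summed to 15.4 to 26.8 CPM in KO HI and 14.9 to 18.9 CPM in KO sham libraries, with 0 of 6 called in edgeR and 0 in DESeq2. In bulk RNA a larger share of cells of a type and more RNA per cell cannot be told apart.

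With the microglia score as a second covariate, 23 myeloid receptor genes, 18 phagocytosis genes and 19 lysosome genes were called higher, against 4.61% of all genes, and the list medians were 1.23, 0.83 and 0.60. The change of Ctsb was 1.39 in that fit, that of Lpl 3.22 and that of Lcn2 4.75.

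Complement, antigen presentation and interferon lists showed smaller changes. Of 19 complement genes 10 rose and 1 fell, of 22 antigen presentation genes 10 rose and 0 fell, and of 35 interferon-stimulated genes 14 rose and 1 fell, with medians of 0.79, 0.46 and 0.46. Psmb8, a subunit of the immunoproteasome, rose by 0.91 ± 0.17 and B2m, the light chain of MHC class I, by 0.57 ± 0.14. H2-DMb1, which loads peptides on MHC class II, rose by 1.01 ± 0.17 and Cd83 by 1.36 ± 0.38. Ifitm1, a membrane protein that blocks viral entry, had 63.5, 31.4, 42.4 and 74.5 CPM in KO HI libraries, against 8.64, 19.7, 26.6 and 24.7 CPM in KO sham libraries, a change of 1.38 ± 0.20 (edgeR adjusted p = 0.00164). Irf7 rose by 0.76 ± 0.15 and Rsad2 by 1.16 ± 0.24, and the guanylate-binding protein Gbp3 fell by 0.54 ± 0.11. In the fit with the microglia covariate 8, 3 and 7 members of the 3 lists rose, without the covariate 7, 3 and 7, and with KO HI 3 left out 5, 3 and 4. The antigen presentation count was also 4 when KO HI 1 was left out, 6 when KO sham 3 was, and 5 when KO sham 1 or KO sham 6 was.

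Genes of protein folding in the ER rose together by moderate amounts. ER chaperones fold secreted and membrane proteins, and ER stress raises them through the sensors ATF6, IRE1 and PERK. Of 26 members 19 rose and 0 fell, with a median of 0.50. Hspa5 (Gene ID 14828), the main ER chaperone BiP, had 1895, 1136, 1156 and 1530.3 CPM in KO HI libraries, against 518, 891, 810.1 and 683 CPM in KO sham libraries, a change of 0.93 ± 0.16 (edgeR adjusted p = 0.00278). Calr, calreticulin, had 1817, 1304, 1285 and 1673 CPM in KO HI libraries, against 741, 995, 964 and 954 CPM in KO sham libraries, a change of 0.70 ± 0.10. The groups of both genes did not overlap. Sdf2l1, an ER-resident cofactor, had 96.01, 44.5, 65.05 and 71.9 CPM in KO HI libraries, against 14.9, 21.3, 18.99 and 23.4 CPM in KO sham libraries, the largest change of the list at 1.79 ± 0.26. Dnajb11, a cochaperone of BiP, rose by 0.55 ± 0.08, Creld2 by 0.78 ± 0.13 and Xbp1, the transcription factor downstream of IRE1, by 0.63 ± 0.09. The sensors themselves were not called: Ern1 (IRE1) changed by -0.08, Eif2ak3 (PERK) by 0.03 and Atf6 by 0.17. With the microglia covariate 12 members rose, without the covariate 10, with KO sham 4 left out 12 and in the low-neuron fit 22. In WT cells the list's median HI response was 0.07.

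The ER stress response element is printed for the list because its letters were frequent in these promoters. The letters CCAAT and CCACG with any 9 bases between them, on either strand, occurred in 8 of the 22 list genes with a RefSeq window (36.36%) and in 0.1369% of all 27025 genes. Among the 11794 tested genes with a window the share was 0.1781%. The list was made of genes of ER folding and its stress response, so its share is no test of their regulation here. Each match is shown on the strand that reads CCAAT first, with the fixed letters in capitals (RefSeq, GRCm38.p6; the motif was chosen with the gene values known).
Hspa5, chr2:34772025-34772043: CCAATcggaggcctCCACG
Calr, chr8:84847075-84847093: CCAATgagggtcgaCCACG
Hsp90b1, chr10:86705638-86705656: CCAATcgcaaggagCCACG
Hsp90b1, chr10:86705533-86705551: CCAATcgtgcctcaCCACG
Canx, chr11:50325800-50325818: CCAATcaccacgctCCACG
Pdia6, chr12:17266491-17266509: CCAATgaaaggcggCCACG
Dnajc3, chr14:118937827-118937845: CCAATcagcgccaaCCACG
Creld2, chr15:88819520-88819538: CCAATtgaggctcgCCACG
Syvn1, chr19:6046532-6046550: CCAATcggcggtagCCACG
Of these 8 genes, Hspa5, Calr, Hsp90b1, Canx, Pdia6 and Creld2 rose, and Dnajc3 and Syvn1 had changes of 0.14 and 0.33 that were not called. Over all tested genes, 21 carried the letters, of which 8 rose and 0 fell. The further 2 that rose were Ero1b, an ER oxidase, at 0.59 ± 0.17 and the adenylyl cyclase Adcy3 at 0.60 ± 0.17. The promoter of Hspa5 is shown for its 120 bases before the start, with its match in capitals (plus strand, chr2:34771970-34772089).
Hspa5: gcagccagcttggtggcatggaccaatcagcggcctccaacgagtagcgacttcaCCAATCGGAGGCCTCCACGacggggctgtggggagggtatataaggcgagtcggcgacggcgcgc

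Factors that build ribosomes rose while the ribosomal proteins themselves were not called. Of 28 ribosome biogenesis genes 22 rose and 0 fell, with a median of 0.49. Heatr1, a factor of ribosomal RNA transcription, had 93.97, 48.3, 71.3 and 92.8 CPM in KO HI libraries, against 25.03, 31.9, 43.5 and 42.5 CPM in KO sham libraries, a change of 1.07 ± 0.16 (edgeR adjusted p = 0.00185). Npm1, nucleophosmin, had 561, 349.7, 442 and 513 CPM in KO HI libraries, against 269, 294, 304 and 328 CPM in KO sham libraries. Its groups did not overlap, and its change was 0.62 ± 0.11. Of 53 ribosomal protein genes 0 were called in edgeR, with a median of 0.12, and 4 were called higher by DESeq2. Of 34 proteasome subunits and activators 16 rose by small amounts (median 0.23), with the activator subunit Psme2 at 0.54 ± 0.06 and the catalytic subunit Psmb6 at 0.60 ± 0.10. With the microglia covariate 9 ribosome biogenesis genes and 6 proteasome genes rose, and without the covariate 16 and 5. Leaving out 1 knockout library gave 10 to 24 ribosome biogenesis genes, with the fewest without KO HI 3, and 5 to 27 proteasome genes, with the fewest without KO sham 4 and the most without KO HI 2.

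Glycolysis genes and hypoxia-inducible genes rose in part. Of 18 glycolytic enzymes 9 rose and 0 fell (median 0.46), and of 32 hypoxia-inducible genes 7 rose and 2 fell (median 0.02). Without the covariate 4 glycolytic enzymes rose, and with the microglia covariate 6. Slc16a3, the lactate exporter MCT4, had 85.9, 33.8, 55.003 and 43.8 CPM in KO HI libraries, against 3.88, 6.92, 10.1 and 15.5 CPM in KO sham libraries, a change of 2.59 ± 0.38 (edgeR adjusted p = 0.00164). Hk2, a hexokinase, had 135, 68.1, 90.3 and 112 CPM in KO HI libraries, against 27.6, 35.3, 49.7 and 54.8 CPM in KO sham libraries, and Hk3, the hexokinase of myeloid cells, rose by 1.504 ± 0.31. Pkm, pyruvate kinase, rose by 0.79 ± 0.12, Ldha, lactate dehydrogenase, by 0.62 ± 0.10 and Pfkfb3, which raises the activator of phosphofructokinase, by 1.12 ± 0.23. Vegfa, the hypoxia-inducible vessel growth factor, had 22.8, 76.3, 41.1 and 46.6 CPM in KO HI libraries, against 79.8, 72.2, 44.5 and 34.4 CPM in KO sham libraries, a change of -0.22 ± 0.27 that was not called. Of 53 nuclear-encoded respiratory chain subunits, 0 were called in edgeR and 0 in DESeq2, and their median was 0.11. Their largest absolute change was that of Atp5g1, at 0.44 ± 0.18. In the low-neuron fit 9 of these subunits were called higher, and 11 when KO sham 1 was left out with the neuron covariate kept.

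Heme, iron and metal genes and p53 targets changed in part. Of 29 genes of the first list 13 rose and 2 fell, and 5 rose without the covariate, 4 with the microglia covariate, 8 when KO HI 1 was left out and 6 when KO HI 3 or KO sham 4 was. Hmox1, heme oxygenase, had 261, 83.5, 180.2 and 186 CPM in KO HI libraries, against 32.4, 47.6, 57.7 and 58.6 CPM in KO sham libraries, a change of 1.82 ± 0.30 (edgeR adjusted p = 0.00243). Slc39a14, an importer of zinc and iron, rose by 1.69 ± 0.19 and the metallothionein Mt1 by 1.47 ± 0.31. The transferrin receptor Tfrc and the iron exporter Slc40a1 fell by 0.89 ± 0.20 and 0.79 ± 0.19. Of 27 p53 and cell death genes 10 rose and 1 fell, and 6 rose without the covariate. Cdkn1a, the cell cycle inhibitor p21, had 276, 139, 178 and 247 CPM in KO HI libraries, against 53.6, 89.01, 96.3 and 105 CPM in KO sham libraries, a change of 1.24 ± 0.20. Pmaip1 and Bax, which promote apoptosis, rose by 1.43 ± 0.26 and 0.60 ± 0.11, as did the apoptosis inhibitor Bcl2l1 (0.51 ± 0.11) and Ripk3 (1.06 ± 0.18), a kinase of necroptosis. Of 38 cell cycle genes 4 were called lower and 1 higher, and the share called lower (10.53%) was near the 9.12% of all genes.

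Contractile genes of the vessel wall were lower after HI. Of 21 smooth muscle and contractile genes 15 fell and 0 rose, with a median of -1.03. Acta2 (Gene ID 11475), smooth muscle actin, had 312, 518, 291 and 503 CPM in KO HI libraries, against 665, 1043, 1727 and 719 CPM in KO sham libraries, a change of -1.33 ± 0.29 (edgeR adjusted p = 0.00784). Myh11, the smooth muscle myosin heavy chain, had 123, 205, 109 and 264 CPM in KO HI libraries, against 278, 455, 782 and 274 CPM in KO sham libraries, and Myl9, a myosin light chain, had 190.3, 260.2, 141 and 246 CPM in KO HI libraries, against 259, 425, 749 and 358 CPM in KO sham libraries. The groups did not overlap in Myh11 and overlapped in Myl9 through KO HI 2 and KO sham 1. Mylk, the kinase that activates it, fell by 1.07 ± 0.21 and Tagln, an actin-binding protein, by 1.03 ± 0.28. Olfr78, an olfactory receptor of vascular muscle, had 4.52, 10.4, 3.93 and 12.5 CPM in KO HI libraries, against 18.4, 29.2, 55.3 and 16.3 CPM in KO sham libraries, and the related Olfr558 fell by 2.095 ± 0.34. Without the covariate 6 members fell, with the microglia covariate 7, in the low-neuron fit 6 and without KO sham 4 again 6. KO sham 4 had the highest sham level of 11 of the 12 largest decreases.

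Pericyte markers were lower in part. Of 19 tested 10 fell and 0 rose, with a median of -0.57. Rgs5, a regulator of G protein signals, had 1261, 1307, 712 and 2364 CPM in KO HI libraries, against 1704, 3396, 4420.3 and 2521 CPM in KO sham libraries, a change of -1.196 ± 0.21 (edgeR adjusted p = 0.00313). Notch3, the mural Notch receptor, changed by -1.01 ± 0.16, Heyl, its target, by -0.93 ± 0.18, Cspg4, the proteoglycan NG2, by -0.61 ± 0.13 and Pdgfrb by -0.62 ± 0.14. Kcnj8 and Abcc9, the subunits of the pericyte ATP-sensitive potassium channel, were not called. Kcnj8 had 48.4, 26.4, 24.6 and 78.6 CPM in KO HI libraries, against 14.4, 43.8, 64.8 and 65.5 CPM in KO sham libraries, and Abcc9 had 154, 72.1, 63.8 and 259.6 CPM in KO HI libraries, against 30.5, 117, 173 and 177 CPM in KO sham libraries. Their changes were -0.17 ± 0.22 and 0.01 ± 0.24, and a fit of the difference from Rgs5 was not made. Of the 27 channels and receptors of mural cells 14 fell and 2 rose, among them the nitric oxide receptor subunits Gucy1a1 (-0.96 ± 0.16) and Gucy1b1 (-0.78 ± 0.16), the phosphodiesterase Pde3a (-1.08 ± 0.22) and the prostaglandin receptor Ptger4, which rose (1.76 ± 0.34). Without the covariate 0 pericyte markers and 2 channel genes were lower, and in the low-neuron fit 1 and 1. With the microglia covariate 8 and 6 were lower, and 9 and 6 channel genes were lower without KO HI 1 and without KO sham 4.

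Of 34 genes of collagens, elastic fibres and wound matrix 8 fell and 3 rose. Fbln5 (Gene ID 23876), which assembles elastic fibres, had 225, 374, 158 and 387 CPM in KO HI libraries, against 415, 844, 1534 and 687 CPM in KO sham libraries, a change of -1.57 ± 0.26 (edgeR adjusted p = 0.00254). Eln, elastin, had 921, 2261, 1020.1 and 2512 CPM in KO HI libraries, against 2738, 4478, 8077 and 2753 CPM in KO sham libraries, and Fbln2 had 155, 192, 88.9 and 213 CPM in KO HI libraries, against 212, 440.4, 835 and 500.1 CPM in KO sham libraries. KO sham 4 was the highest library for Fbln5 and Eln. Ltbp1 and Ltbp4, which tether latent TGF-β to these fibres, changed by -1.45 ± 0.23 and -1.28 ± 0.21. The 3 that rose were Spp1, Prg4 and Thbs1 (1.52 ± 0.25), the matrix protein thrombospondin-1. Without the covariate 2 matrix genes fell, with the microglia covariate 4 and in the low-neuron fit 3, and 5 fell when KO HI 3 or KO sham 4 was left out and 13 when KO HI 4 was. Of 22 basement membrane genes 11 fell (median -0.48), with Agrn at -0.71 ± 0.12, the laminin chain Lama4 at -0.64 ± 0.14 and the integrin chain Itga1 at -0.85 ± 0.16. No member of that list was called without the covariate in edgeR, 3 fell with the microglia covariate and 3 in the low-neuron fit, and 4 or 5 fell when KO HI 1, KO HI 3, KO sham 3 or KO sham 4 was left out. Of 18 fibroblast markers 1 fell, Col15a1 at -1.12 ± 0.28, and Pdgfra, Dcn and Col1a1 changed by -0.08 ± 0.28, -0.08 ± 0.33 and -0.14 ± 0.26.

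**Figure D4:**
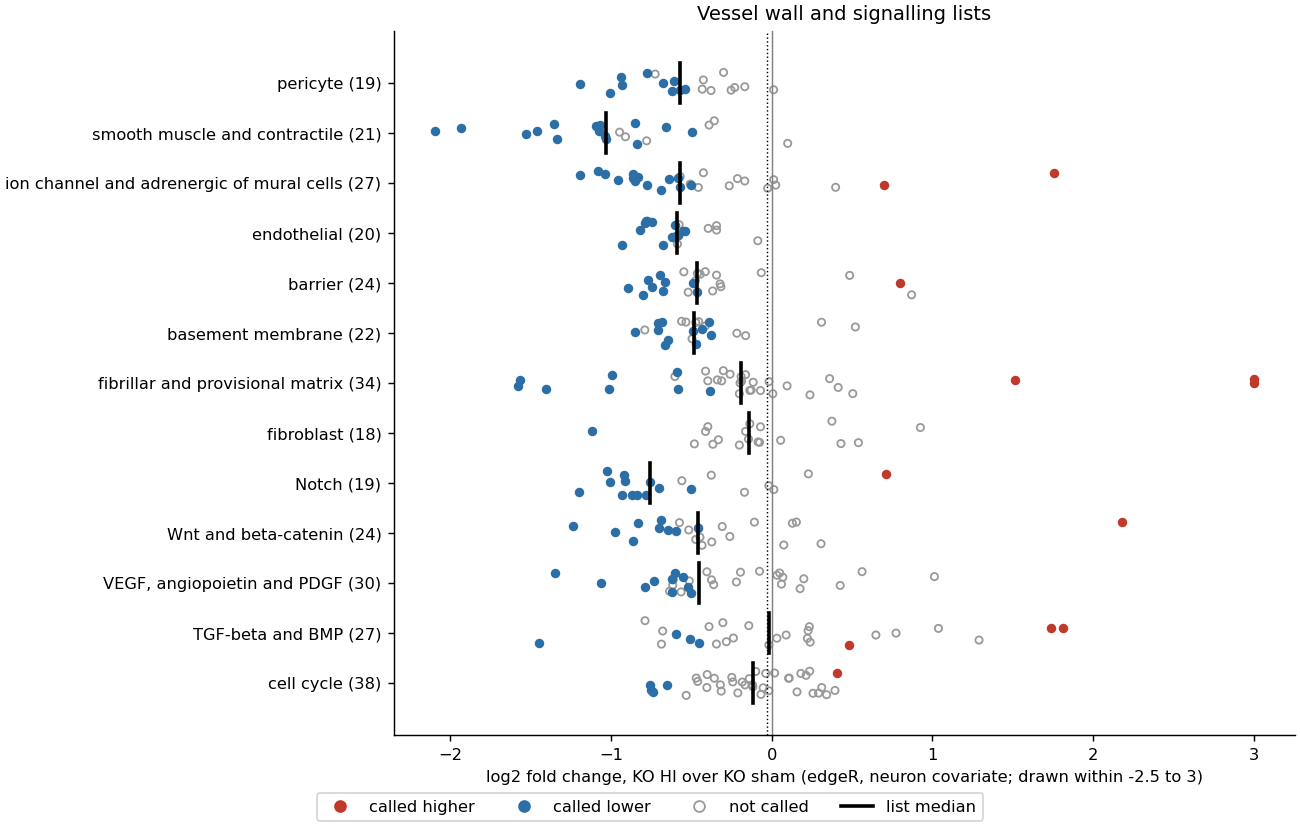
Log2 fold change (KO HI over KO sham) of each member of 13 lists of the vessel wall and its signalling, 1 point a gene, with called genes filled and list medians as black bars. The contractile list lies lowest with a median of -1.03, and the fibroblast list has a median of -0.14 with 1 member called.

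Genes of Notch signalling were lower. Notch receptors are activated by Jagged and Delta ligands on neighbouring cells and act through RBPJ on HES and HEY targets. Of 19 Notch genes 12 fell and 1 rose, with a median of -0.76. Among ligands, Dll1 changed by -1.197 ± 0.21 and Jag2 by -0.84 ± 0.15. Among receptors, Notch3 had 305, 349, 214 and 482 CPM in KO HI libraries, against 386, 612, 1107 and 590.4 CPM in KO sham libraries, and Notch4 changed by -0.76 ± 0.13. Among targets, Hey1 had 26.4, 21.2, 34.2 and 35.9 CPM in KO HI libraries, against 68.1, 53.7, 67.7 and 49.3 CPM in KO sham libraries, a change of -1.02 ± 0.19 (edgeR adjusted p = 0.00414), and Nrarp changed by -0.92 ± 0.17. Rbpj was the member that rose (0.71 ± 0.13). Its values were 186, 107, 129.9 and 204 CPM in KO HI libraries, against 72.2, 90.99, 108 and 97.5 CPM in KO sham libraries. With the microglia covariate 10 Notch genes fell, in the low-neuron fit 8 and without the covariate 3.

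Of 24 Wnt genes 9 fell and 1 rose, and 3 fell without the covariate, 5 with the microglia covariate, 15 when KO HI 2 was left out and 14 when KO sham 1 was. Nkd1, a feedback inhibitor, changed by -0.97 ± 0.17, the secreted modulator Dkk2 by -1.24 ± 0.19, and Tspan12 and Adgra2, coreceptor components of brain endothelium, by -0.70 ± 0.12 and -0.69 ± 0.15. The secreted inhibitor Wif1 rose (2.18 ± 0.48) at a low level, with 3.05, 0.978, 0.968 and 4.75 CPM in KO HI libraries, against 0.0732, 0.5102, 0.463 and 0.713 CPM in KO sham libraries. Of 30 VEGF, angiopoietin and PDGF genes 10 fell and 0 rose, and 1 fell without the covariate, 5 with the microglia covariate, 5 when KO HI 1 or KO HI 3 was left out and 6 when KO sham 3 was. Apln, a peptide of endothelial tip cells, had 63.2, 32.98, 29.4 and 61.4 CPM in KO HI libraries, against 83.5, 97.2, 114 and 141 CPM in KO sham libraries, a change of -1.35 ± 0.19. Vegfc, a ligand of lymphatic and venous growth, changed by -1.06 ± 0.18 and Tek, the angiopoietin receptor, by -0.79 ± 0.16. Of 27 TGF-β and BMP genes 3 rose and 4 fell, with a median of -0.02. These shares, 11.11% and 14.81%, were not far from the 9.91% and 9.12% of all genes. The count that fell was 1 without the covariate and 1 with the microglia covariate. It ranged from 1 to 8 when 1 knockout library was left out. Of the members, Tgfbi, a secreted target, rose by 1.81 ± 0.28, and Id1, a BMP target, changed by -0.51 ± 0.15.

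Endothelial markers were lower, and barrier genes in part. Of 20 endothelial markers 14 fell and 0 rose, with a median of -0.59, and the markers summed to 5122 to 10653 CPM in KO HI and 6606 to 18493 CPM in KO sham libraries. Pecam1, an adhesion protein of endothelial cells, had 411, 333, 221 and 419.7 CPM in KO HI libraries, against 233, 462, 724 and 584 CPM in KO sham libraries, a change of -0.54 ± 0.12. Cldn5, the main claudin of the blood-brain barrier, had 1035, 983, 522 and 955 CPM in KO HI libraries, against 601, 1234, 1859 and 1926 CPM in KO sham libraries, with overlapping groups and a change of -0.67 ± 0.19 (edgeR adjusted p = 0.0249). Of 24 barrier genes 9 fell and 1 rose. The junction protein Tjp1 changed by -0.47 ± 0.11, and Lrp1, an endocytic receptor shared with other cells, was the member that rose (0.80 ± 0.13). Without the covariate 0 endothelial markers and 1 barrier gene were called lower in edgeR, and with the microglia covariate 7 and 3. The endothelial count was 7 when KO HI 1 or KO HI 3 was left out and 9 when KO HI 4, KO sham 3 or KO sham 6 was. The barrier count was 4, 15 and 3 when KO HI 1, KO HI 2 and KO HI 3 were left out in turn, and 5 when KO sham 3 or KO sham 6 was. The share of endothelial cells was not measured, and its part in these changes was not tested.

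**Figure D5:**
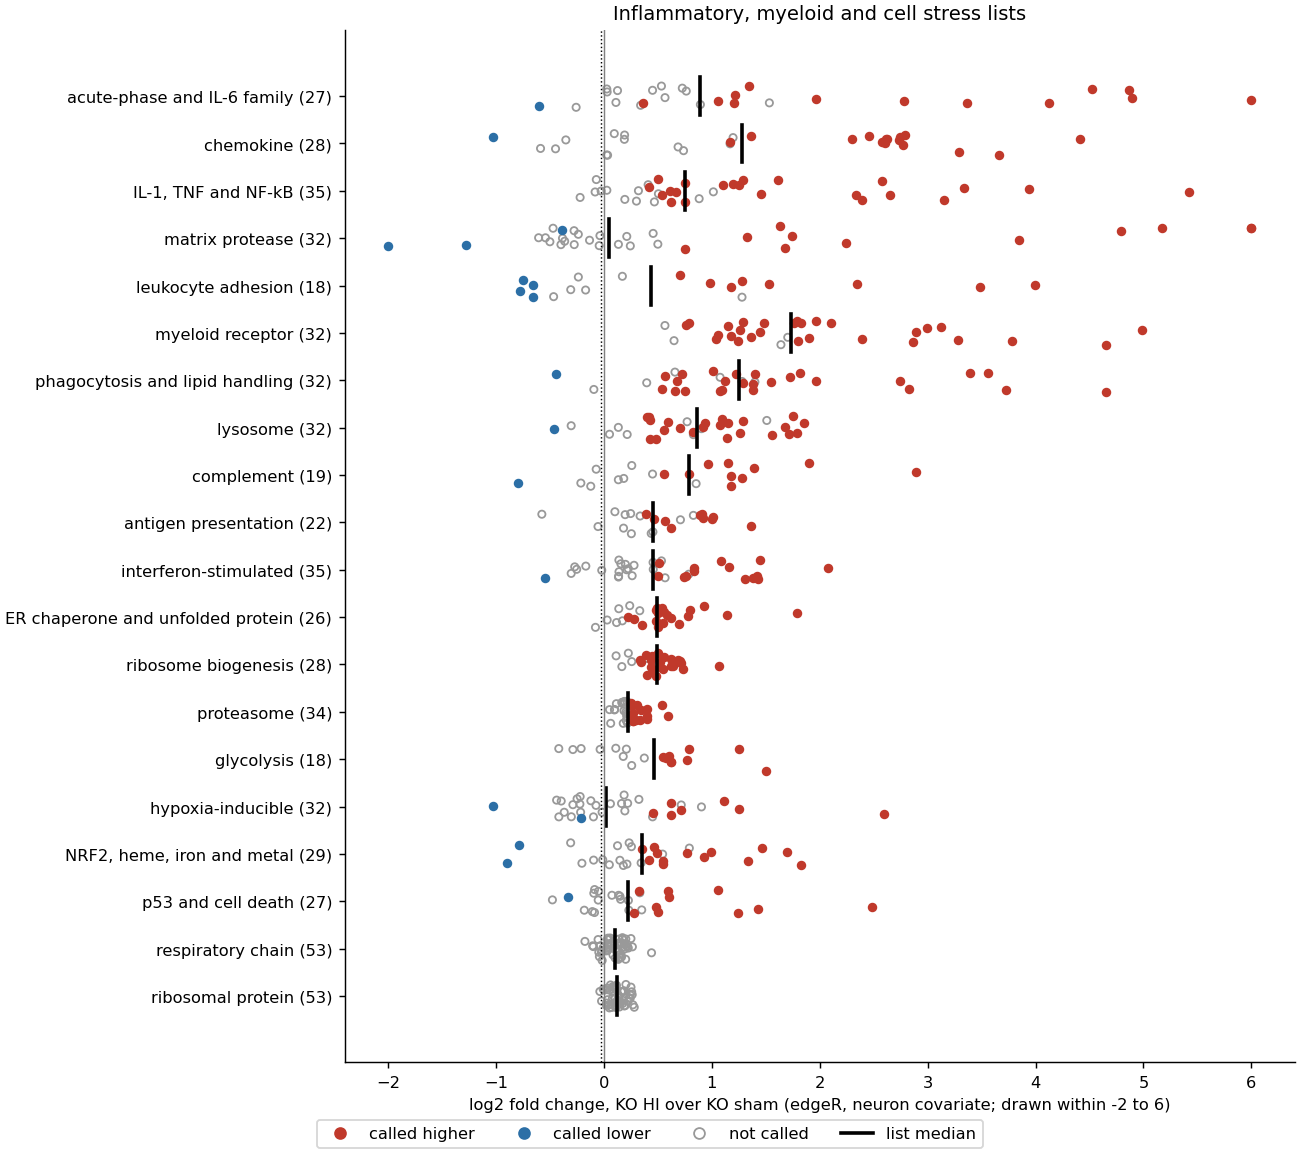
Log2 fold change (KO HI over KO sham) of each member of 20 inflammatory, myeloid and cell stress lists, 1 point a gene, with called genes filled and list medians as black bars. Myeloid receptors have the highest median (1.73), and no respiratory chain or ribosomal protein gene is called.

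Transcripts of glia and other cells that the isolates could hold varied widely within each group. Of 16 astrocyte markers Gfap, the intermediate filament raised in reactive astrocytes, was the only member called in edgeR. It had 165, 363, 1807 and 99.6 CPM in KO HI libraries, against 987, 176, 25.5 and 90.97 CPM in KO sham libraries, a change of 1.502 ± 0.25 (adjusted p = 0.00259). The groups overlapped in raw CPM, and KO sham 1, the library richest in neuronal transcripts, had the highest sham value. Without the neuron covariate the change of Gfap was 0.93 ± 1.02 (edgeR adjusted p = 0.677), and in the low-neuron fit 1.20 ± 0.68 (adjusted p = 0.252), so it was called in neither. Aqp4, Aldh1l1 and Slc1a3 changed by -0.16 ± 0.23, 0.11 ± 0.17 and -0.22 ± 0.33. The choroid plexus transcript Ttr had 4241, 51141, 9822 and 1233 CPM in KO HI libraries, against 12301, 25561, 122 and 3519.6 CPM in KO sham libraries, and 0 of 14 choroid plexus genes were called in edgeR and 0 in DESeq2. Igf1, a growth factor that microglia and other cells make, had 133, 93.7, 106 and 146 CPM in KO HI libraries, against 33.7, 42.1, 39.3 and 62.8 CPM in KO sham libraries, a change of 1.399 ± 0.23 (edgeR adjusted p = 0.00216).

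The HI response of knockout cells was set against that of WT cells by an interaction in the same fit. 1 gene of 14853 (0.00673%) differed at an adjusted p under 0.05, and 2393 had an unadjusted p under 0.05. It was Upp1 (Gene ID 22271), uridine phosphorylase, an enzyme of pyrimidine salvage. Upp1 had 4.75, 5.58, 6.596 and 3.69 CPM in KO HI libraries, against 3.66, 3.97, 2.37 and 1.32 CPM in KO sham libraries. In WT HI libraries 1, 2, 4 and 5 it had 20.2, 14.8, 20.01 and 23.9 CPM, against 1.201, 1.45 and 1.44 CPM in WT sham libraries 1, 2 and 3. Its response was 0.93 ± 0.24 in KO and 4.04 ± 0.30 in WT, and the difference, KO minus WT, was -3.11 ± 0.37 (edgeR adjusted p = 0.02103). The count of genes with such a difference ranged from 0 to 533 when libraries were left out 1 at a time, and was 0 without the covariate, 0 in limma-voom and 313 in DESeq2.

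In WT 706 of the 14853 tested genes were called higher and 749 lower. Of the 1472 genes called higher in KO, 320 (21.7%) were also called higher in WT, which is 45.3% of the 706 genes called higher there. Of the 1354 called lower in KO, 354 (26.1%) were called lower in WT, 47.3% of 749. Of the 2826 genes called in KO, 2487 changed in the same direction in WT, called there or not, and 3 were called in the opposite direction. The share with the same direction over all tested genes was not computed, so the count of 2487 has no background beside it. The responses of KO and of WT also share the covariate and the estimate of spread. Side by side, the responses of KO and of WT were 4.896 ± 0.39 and 6.07 ± 0.46 for Lcn2, 4.79 ± 0.47 and 3.86 ± 0.53 for Adam8, 1.85 ± 0.31 and 1.29 ± 0.35 for Ctsb, 0.93 ± 0.16 and 0.20 ± 0.18 for Hspa5 and -1.33 ± 0.29 and -0.42 ± 0.32 for Acta2. None of these 5 was called in the interaction, which does not show that they responded alike. List medians were 0.87 in KO and 0.36 in WT for lysosome genes, 0.70 and -0.57 for microglia markers, and -1.03 and -0.37 for contractile genes; the difference was not tested at the level of lists.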

How the data were processed

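RNA of PDGFRβ-positive mouse brain cells was sequenced in 15 libraries. The authors deposited 1 table of expected counts per gene, not normalized. Between 3.12% and 3.92% of a library's values have decimals, and the submitters' processing notes list RSEM 1.3.1, which gives such estimates. They also list HISAT2 2.1.0, Bowtie2 2.4.4, Bowtie, DESeq2 1.4.5 and the build mm39, with no roles. The table has 65535 lines, of which 17892 hold values and 47643 are blank and say nothing of expression. Of the lines with values 17862 matched a symbol by Gene ID.

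Counts were rounded, filtered with filterByExpr and fitted with edgeR 4.0.16 (TMM, glmQLFit, glmQLFTest) in R 4.3.3, with 4 group means over 15 libraries and the mean log2 CPM of the neuron markers as covariate (prior count 1). The spread left after group and neuron score, shared by all 15 libraries and genes, was 20.8% (biological coefficient of variation). Scripts were tested on simulated data. Of 1229 list entries in 48 lists, 1226 had values.

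Named genes were the 12 largest increases and decreases called with and without the covariate (2-fold, 20 CPM, no overlap), the 8 largest gains and losses in CPM, up to 6 called members of each list by p in each direction and the first 4 of each marker list. Hspa5, Cxcl2, Vegfa, Upp1, Trem2, Ern1, Eif2ak3, Atf6 and the genes named by a promoter match were named outside this rule, after their values were seen. The members, lists and tests were chosen with earlier results of these data known. Alternatives changed the covariates, libraries, normalization, tool, filter and replicate block. Samples were grouped by their labels. Where 2 lists hold the same gene it counts in each. Depth limits low genes; intervals were not computed for them. Some genes are not reported here.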

Additional observations from a re-analysis of the deposited data

Results flagged for a closer look

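In 150 groups of 4 libraries, 62 genes and 13 marker lists in both knockout groups, a single library stood apart from the other 3 in 13 cases, where chance gives about 1 in 20. KO HI 2 was the low library for Lcn2 (16.9 CPM, against 58.0 to 61.6 CPM in the other HI libraries), Adam8 (17.0 CPM, against 66.6 to 75.9 CPM), Lilrb4a (38.7 CPM, against 122 to 136 CPM) and Sele (2.24 CPM, against 9.61 to 9.86 CPM). The library thus showed the smallest increase in each of these 4 genes, and its choroid plexus score was the highest of the KO HI libraries at 8.54 log2 CPM; the part of that score was not tested.

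KO HI 3 was the low library for Adamts16 (6.47 CPM, against 17.0 to 17.6 CPM), for Cldn5 (522 CPM, against 955 to 1035 CPM) and for the endothelial markers (7.45 log2 CPM, against 8.40 to 8.52), and the high library for Gfap (1807 CPM, against 99.6 to 363 CPM). KO HI 1 was high for Tmem119 (288 CPM, against 118 to 132 CPM). Among sham libraries, KO sham 6 was high for Spp1 (427 CPM, against 20.6 to 27.4 CPM), KO sham 1 was high for Gfap (987 CPM, against 25.5 to 176 CPM) and low for Calr (741 CPM, against 954 to 995 CPM), and KO sham 3 held the only Saa3 signal (0.057 CPM, against 0 in the other 3).

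Upp1 was the gene whose HI response differed between genotypes in the edgeR interaction, with a difference, KO minus WT, of -3.11 ± 0.37 on the log2 scale (adjusted p = 0.0210).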

How the results depend on the processing

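The counts of called genes depended on the covariates, on the WT libraries in the fit, on a replicate block and on single knockout libraries. Against 1472 higher and 1354 lower genes, edgeR gave 725 and 316 without a covariate, 684 and 576 with neuron and microglia scores, 527 and 196 in the 8 knockout libraries with the neuron covariate, and 16 and 0 in those libraries without it. Leaving out 1 library at a time gave 751 to 1867 higher and 603 to 1680 lower genes. The lowest pair came without KO sham 4 and the highest without KO HI 2, and counts were also over 1.5 times lower without KO HI 1 (851 and 732) and without KO HI 3 (787 and 728). Other normalization, tools, filters and a choroid plexus covariate left both counts within 1.5 times. So did a fit with no covariate and without the 4 libraries with a neuron score above 2.5 log2 CPM (1712 and 1191), which is over 1.5 times the counts of the fit with no covariate in all libraries. The cause was not tested. Of the knockout libraries that fit kept only KO HI 1, KO HI 4, KO sham 4 and KO sham 6. Among 255 called named genes none changed sign under any alternative, and 12 were called under each.

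The single gene with a different HI response in KO and WT became 0 without a covariate, 0 with neuron and microglia scores, 0 in limma-voom, 245 without both the covariate and the libraries of high neuron score and 313 in DESeq2, and 0 to 533 when 1 library was left out, with 533 reached without WT HI 2. The labels do not say whether replicate numbers pair the samples. Deviations of same-numbered libraries correlated at -0.78, 0.28 and 0.78 in knockout and at 0.27 and 0.20 in WT. The neuronal level was left in these deviations, so they cannot show whether same-numbered libraries shared a batch. With a replicate block 539 genes were higher, 618 lower and 0 different with the neuron covariate, and 53, 20 and 0 without it. KO HI 3 correlated best with KO sham 1 (0.89), not with its own number. Total counts of 15436376 to 18118697 limit genes of few counts, and the table's blank lines limit which genes could be tested.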
